A study of Drosophila melanogaster with 3 samples.

Results

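The large subunit of the cytosolic ribosome is encoded in Drosophila melanogaster by the RpL genes, and their promoters were examined for peaks of Squeeze (sqz), a Krüppel-type zinc finger transcription factor. The members were all protein-coding genes of the Ensembl annotation whose symbol begins with RpL, which gave 54 of 13945 genes. The rule reads the symbol and no peak value, but the group itself was proposed with earlier results of these data known. Of these symbols, 4 hold the word "like". RpL24-like, RpL7-like and RpLP0-like are relatives of yeast proteins that act in ribosome assembly, and RpL22-like is a paralogue of RpL22.

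Chromatin immunoprecipitation and sequencing (ChIP-seq) had been done on whole embryos of both sexes, 0 to 16 h old, in 3 biological replicates. The embryos came from a single transgenic line, sqz-GFP, in which sqz carries GFP at its C-terminal end, and all 3 libraries share that genotype, age and lack of treatment. There was no second group, so nothing was contrasted between conditions. The promoter that drives the tagged gene is not given in the sources used here, and the embryos hold many cell types, so fewer bound cells and weaker binding per cell cannot be told apart. The deposited lists held 6578 peaks in the thresholded set and 30000 in the pooled list and in each library list, with no read counts, so depth is unknown. A gene is called marked below when the summit of a thresholded peak lies within 1 kb of any of its annotated transcription start sites (TSSs).

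Ribosomal protein genes are transcribed at high rates in nearly all cells, and the ribosome needs its parts in near equal amounts. In flies their transcripts start in a pyrimidine-rich sequence called the TCT initiator, which takes the place of the usual initiator. Known partners of such promoters are the DNA replication-related element (DRE), bound by the factor DREF, and Motif 1, bound by M1BP. Reduced dosage of many of these genes gives the Minute phenotype of slow growth and short bristles.

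Promoters of 9 members are shown because the peaks described below sit on them or are missing there. They are RefSeq sequence of the Release 6 assembly, which dm6 uses, from 250 bases before the main TSS to 50 bases from it onwards, read 5′ to 3′ on the gene's strand. Base 251 of each run is the TSS. Capitals mark 5 kinds of fixed word, namely the DRE (TATCGATA), the core of Motif 1 (GTCACACT), the E-box (CACGTG) and the TATA box (TATAAA) on either strand, and CCTTT or TCTTT on the gene's strand within 20 bases of the TSS, as in the TCT initiator. The first 4 runs belong to the strongest marked members for which sequence is shown, and they lie at chr2L:10200754-10201053 (plus strand), chr2L:9967080-9967379 (plus), chr2L:12056098-12056397 (plus) and chrX:765081-765380 (minus).
RpL7: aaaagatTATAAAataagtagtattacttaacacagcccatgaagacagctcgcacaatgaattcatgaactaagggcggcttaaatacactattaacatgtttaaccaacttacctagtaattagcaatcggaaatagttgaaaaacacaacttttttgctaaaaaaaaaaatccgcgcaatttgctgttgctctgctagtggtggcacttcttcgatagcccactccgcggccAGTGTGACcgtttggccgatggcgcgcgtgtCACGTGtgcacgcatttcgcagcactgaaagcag
RpL13: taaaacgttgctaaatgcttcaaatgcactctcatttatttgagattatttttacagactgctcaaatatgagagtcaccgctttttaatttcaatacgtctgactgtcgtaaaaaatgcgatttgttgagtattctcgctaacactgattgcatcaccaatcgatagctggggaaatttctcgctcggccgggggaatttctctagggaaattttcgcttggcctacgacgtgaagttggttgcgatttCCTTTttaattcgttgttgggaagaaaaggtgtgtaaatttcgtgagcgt
RpL7-like: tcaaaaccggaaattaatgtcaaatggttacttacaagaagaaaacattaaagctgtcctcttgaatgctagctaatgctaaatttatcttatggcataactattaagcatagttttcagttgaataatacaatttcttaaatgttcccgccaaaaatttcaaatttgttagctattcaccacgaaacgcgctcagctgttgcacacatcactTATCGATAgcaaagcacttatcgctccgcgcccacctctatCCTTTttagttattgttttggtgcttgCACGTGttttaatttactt
RpL22: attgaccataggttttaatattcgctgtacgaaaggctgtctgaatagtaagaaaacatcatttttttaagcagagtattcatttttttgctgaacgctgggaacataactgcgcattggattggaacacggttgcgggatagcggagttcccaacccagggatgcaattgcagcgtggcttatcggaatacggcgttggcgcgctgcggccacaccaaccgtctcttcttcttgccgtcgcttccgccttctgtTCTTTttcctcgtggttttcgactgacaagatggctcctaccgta

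The next run, of RpL10Ab (chr3L:11822601-11822900, plus strand), belongs to the weakest marked member shown. RpL26 (chr3L:18898854-18899153, plus), RpL21 (chr2L:22247784-22248083, minus) and RpL15 (chr3L:27267006-27267305, plus) are the unmarked members of highest pooled rank on the chromosome arms from which sequence is shown, while RpLP0-like, RpLP2 and RpL23 rank above some or all of them. RpL14 (chr3L:8600756-8601055, plus), which was chosen after its values were seen, has strong peaks in 2 libraries and none in the pooled list.
RpL10Ab: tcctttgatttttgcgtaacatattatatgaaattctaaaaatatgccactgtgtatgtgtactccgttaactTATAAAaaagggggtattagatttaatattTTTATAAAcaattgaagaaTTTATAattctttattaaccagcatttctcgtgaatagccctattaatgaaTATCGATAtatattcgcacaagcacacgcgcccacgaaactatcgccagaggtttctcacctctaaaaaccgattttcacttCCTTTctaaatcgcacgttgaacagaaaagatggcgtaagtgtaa
RpL26: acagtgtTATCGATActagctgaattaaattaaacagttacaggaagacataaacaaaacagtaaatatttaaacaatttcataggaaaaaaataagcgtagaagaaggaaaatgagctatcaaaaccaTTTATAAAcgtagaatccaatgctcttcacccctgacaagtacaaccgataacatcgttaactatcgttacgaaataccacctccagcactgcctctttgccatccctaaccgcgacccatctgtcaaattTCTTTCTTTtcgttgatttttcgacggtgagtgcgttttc
RpL21: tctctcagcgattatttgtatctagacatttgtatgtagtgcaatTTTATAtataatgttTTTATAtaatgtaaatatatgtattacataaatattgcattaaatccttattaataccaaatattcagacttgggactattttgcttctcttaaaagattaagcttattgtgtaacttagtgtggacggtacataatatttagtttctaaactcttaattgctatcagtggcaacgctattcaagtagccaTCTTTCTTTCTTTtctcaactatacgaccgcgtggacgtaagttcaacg
RpL15: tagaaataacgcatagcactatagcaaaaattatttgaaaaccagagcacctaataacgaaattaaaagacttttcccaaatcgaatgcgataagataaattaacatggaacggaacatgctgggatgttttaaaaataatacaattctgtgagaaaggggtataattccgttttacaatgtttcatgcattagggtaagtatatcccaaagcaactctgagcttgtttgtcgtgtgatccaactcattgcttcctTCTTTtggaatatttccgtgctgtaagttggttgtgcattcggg
RpL14: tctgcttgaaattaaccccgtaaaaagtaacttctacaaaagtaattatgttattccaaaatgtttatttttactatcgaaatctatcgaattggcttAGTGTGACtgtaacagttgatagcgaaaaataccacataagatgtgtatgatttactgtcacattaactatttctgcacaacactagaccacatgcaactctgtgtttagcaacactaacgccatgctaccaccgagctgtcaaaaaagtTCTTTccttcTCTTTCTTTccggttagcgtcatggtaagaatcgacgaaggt

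In these runs the strongest thresholded summit stood at base 265 of RpL7, base 224 of RpL13, base 203 of RpL22 and base 205 of RpL10Ab. For RpL7-like it fell outside the run. With the TSS as base 1 and no base 0, RpL7 carries the Motif 1 core at -15, an E-box at 17, a TATA word at -243, and no TCT-like word at the main TSS. RpL13 carries only the TCT-like word among the capitalised words. RpL7-like has a DRE, a TCT-like word and an E-box. The unmarked RpL21 has 3 overlapping TCT-like words.

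Of the 54 RpL genes 34 were marked, or 63% (95% Wilson interval 49.6 to 74.6), while 20.5% of all protein-coding genes were. No enrichment test was made, because of how the group was proposed. Among the strongest 3289 thresholded peaks, 29 RpL genes (53.7%) and 13.6% of all genes were marked. Among the strongest 657 peaks, 12 RpL genes (22.2%) and 3.87% of all genes were marked. When a summit had to lie within 100 bp of a TSS, 32 RpL genes (59.3%) remained, and the share of all genes was 7.74%. Windows of 200, 500 and 2000 bp gave 34 RpL genes each, beside 12.4%, 17.3% and 25.2% of all genes. The gene body with 1 kb on each side gave 34 as well, beside 25.9% of all genes.

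The strongest summits of the group were at RpL7, RpL13, RpL11 and RpL19. RpL7 (FBgn0005593, 2L, 10201004 to 10202321, plus strand) had a summit 14 bp inside its 5' UTR at position 10201018, in a peak from 10200880 to 10201188. Its pooled signal value, the peak strength given by the authors' caller, was 849, which ranked 275 in the thresholded set. It ranked 126, 381 and 450 in replicates 1, 2 and 3, so it was among the strong peaks of every library. RpL13 (FBgn0011272, 2L) had a signal of 815 at rank 300, 10 bp upstream of a TSS, with ranks of 218, 394 and 371 in the libraries.

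RpL11 (FBgn0013325, 2R), whose protein binds the 5S ribosomal RNA, had a signal of 747 with the summit 12 bp into the 5' UTR. Its ranks were 627, 375 and 339 in replicates 1, 2 and 3. RpL19 (FBgn0285950, 2R), a protein near the exit of the peptide tunnel, had a signal of 722, 9 bp upstream, and ranks of 322, 534 and 527. Rank 627 was the lowest standing of these genes in any library. The order among the first few members differed between libraries, with RpL7 first in replicate 1 only.

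**Figure D1:**
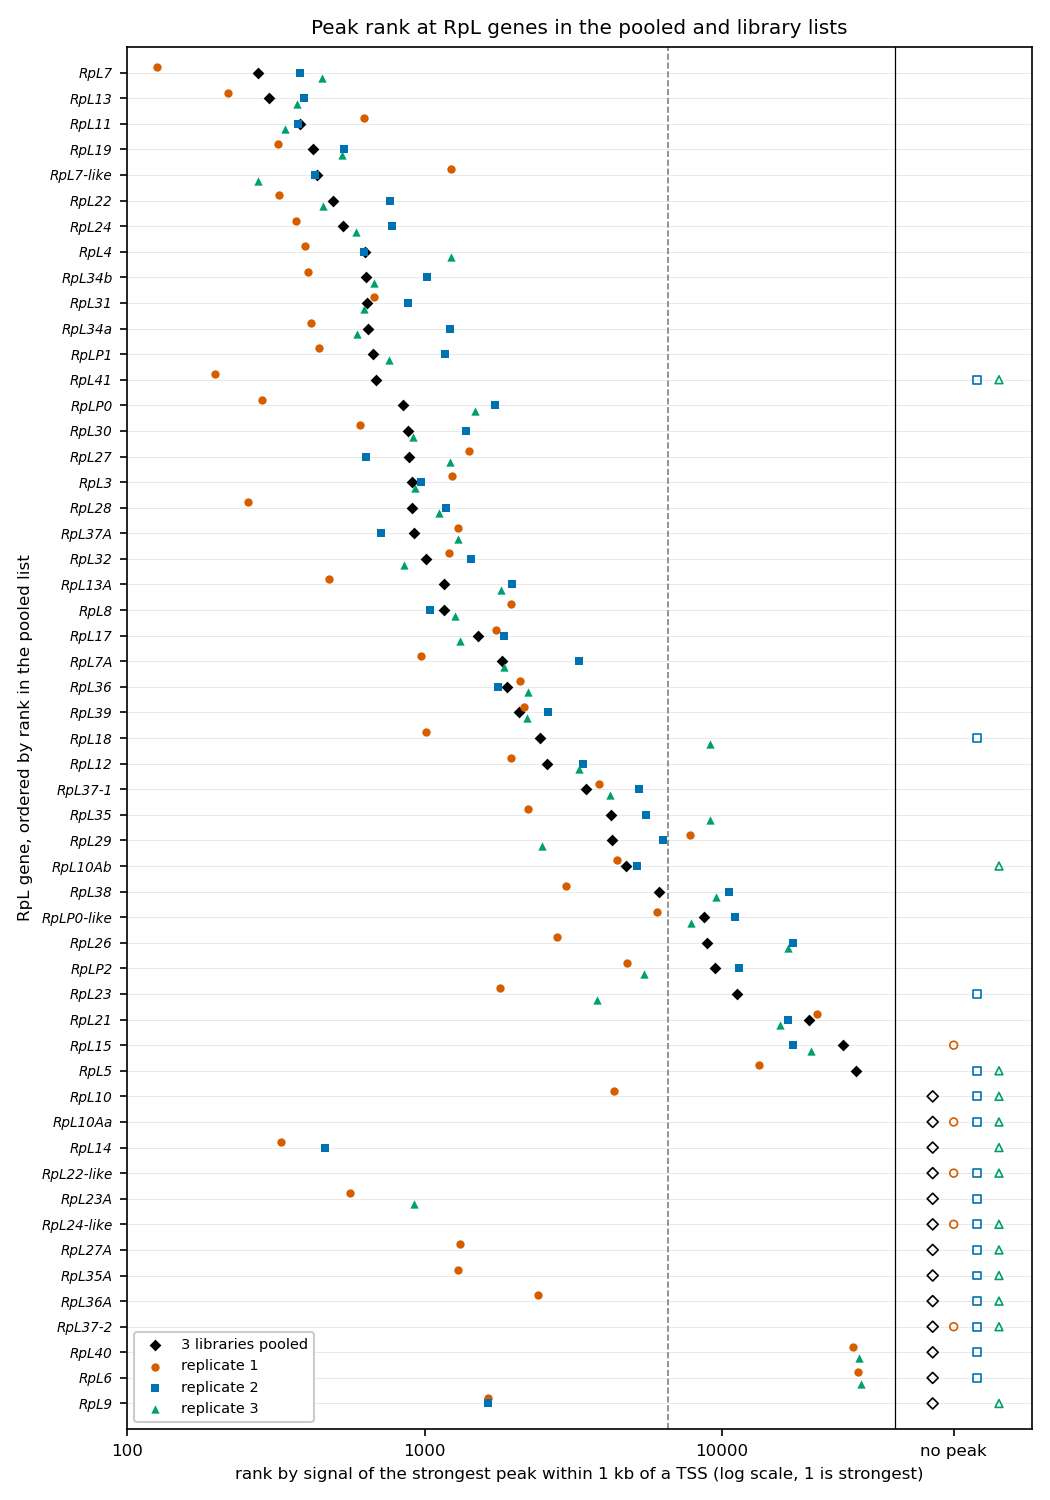
Rank of the strongest peak within 1 kb of a TSS at the RpL genes reported by name (rows), on a log scale, in the pooled list (black) and in replicates 1, 2 and 3 (colours). Open symbols at the right mean that the list of 30000 peaks held none there, and the dashed line is rank 6578. Most marked members lie left of the dashed line in all lists. Their ranks can differ several-fold, as for RpLP0 (283, 1718 and 1473 in replicates 1, 2 and 3). RpL14, RpL23A and RpL9 have filled symbols far to the left beside an open pooled symbol.

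Ranks then fell off gradually. In all, 20 marked members had a rank under 1000, 9 lay between there and rank 3289, and 5 lay beyond it. The median rank of the 34 was 894, and that of all 2860 marked genes was 2175. The median signal was 520, from 173 to 849, against 332 for all marked genes.

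Other strong members followed. RpL7-like had a pooled signal of 710 and ranked 1226, 428 and 275 in replicates 1, 2 and 3, so it stood lowest in replicate 1. RpL22 (676), whose protein lies at the tunnel exit, ranked 323, 767 and 456. Its best rank was in replicate 1, as for RpL24, RpL4, RpL34b and RpL34a. RpL24 (652), whose protein sits at the face towards the small subunit, ranked 369, 777 and 586. RpL4 (607), of the tunnel wall, ranked 396, 625 and 1225. The tunnel exit gene RpL31 (602) ranked 674, 881 and 625. RpL34b (603) and RpL34a (599) are described with the duplicated genes.

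The weakest marked members were RpL35 (signal 225, rank 4217), RpL29 (223, rank 4277), RpL10Ab (209, rank 4744) and RpL38 (173, rank 6148). RpL38 stood near the end of the set, whose lowest signal is 165. It was met in replicate 1 at rank 2996 and lay at 10509 and 9522 in replicates 2 and 3. The unmarked members of highest pooled rank were RpLP0-like at 8670 (signal 135) and RpL26 at 8919 (132). These pooled summits did not lie on the TSS, at -619 bp for RpLP0-like and -953 bp for RpL26. In replicate 1 a summit of rank 3087 lay 58 bp from the main RpL26 TSS. The nearest summits of replicates 2 and 3 lay 873 and 836 bp from it. A divergent neighbour starts 87 bp from the main RpLP0-like TSS (14-3-3zeta) and 811 bp from that of RpL26 (CG3902).

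The libraries ranked the members in a similar but not equal order. Taking the 6578 strongest peaks of each library, 44 RpL genes (81.5%) had a top summit near a TSS in replicate 1, 33 (61.1%) in replicate 2 and 32 (59.3%) in replicate 3. The shares of all genes were 25.6%, 20.1% and 20.4%. The mean RpL share was 67.3% ± 12.3 (SD, n = 3), and the spread came from replicate 1, which stood above the other libraries. The share of all genes was highest in replicate 1 too. Among the 31 marked members with a peak in all 3 full lists, replicate 1 gave the best rank for 20, replicate 2 for 4 and replicate 3 for 7. Best ranks were not counted over all marked genes, so no background stands beside these counts.

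Of the 54 members 28 had such a top summit in every library and all 28 were marked. A further 8 had one in 2 libraries (3 of them marked), 9 in 1 library (3 marked) and 9 in none (0 marked). A top summit in 2 or more libraries was thus found for 36 members (66.7%), beside 20.8% of all genes. Those with one in 2 or more libraries but not marked were 5 members (9.26%), beside 1.89% of all genes. Across members with a peak in both full lists, Spearman's rho of the ranks was 0.76 between replicates 1 and 2 (38 genes), 0.80 between 1 and 3 (40) and 0.90 between 2 and 3 (36). Over all genes it was 0.81, 0.81 and 0.87. The lists share 1 control alignment, and genes are not replicates.

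Single marked peaks were mostly met by each library. Of the 34 strongest summits 26 (76.5%) had a top summit of all 3 libraries within 100 bp, compared with 59.9% for all marked genes. Among those met in 2 libraries were RpL28, RpL35, RpL29 and RpL10Ab. RpL41, RpL18 and RpL38 were met in replicate 1 alone. When only thresholded peaks met in all 3 libraries counted, 27 RpL genes (50%) and 12.7% of all genes were marked.

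RpL41 was the clearest case of a marked gene resting on 1 library. Its summit 14 bp upstream of the TSS had a pooled signal of 583 at rank 684, and it ranked 197 in replicate 1. The lists of replicates 2 and 3 held no peak within 1 kb. Of all protein-coding genes 31 (0.222%) were likewise marked with no peak in the full lists of 2 or more libraries.

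The 20 unmarked members were RpLP0-like, RpL26, RpLP2, RpL23, RpL21, RpL15, RpL5, RpL10, RpL10Aa, RpL14, RpL22-like, RpL23A, RpL24-like, RpL27A, RpL35A, RpL36A, RpL37-2, RpL40, RpL6 and RpL9. They were not all without signal. The pooled list of 30000 held a peak within 1 kb for 41 RpL genes (75.9%) and for 37.3% of all genes. The full lists of replicates 1, 2 and 3 held one for 49 (90.7%), 39 (72.2%) and 41 (75.9%), beside 49.3%, 37.8% and 39% of all genes. RpL10Aa, RpL22-like, RpL24-like and RpL37-2 had no peak in any of these 4 lists, which is 7.41% of the members beside 43.4% of all genes.

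RpL14 had strong peaks in 2 libraries that were absent from the pooled list. It ranked 330 in replicate 1 and 461 in replicate 2, at 29 and 31 bp upstream of its TSS. In replicate 3 and the pooled list the nearest summit was 3089 bp from its main TSS. RpL23A, whose protein lies at the tunnel exit, ranked 561 in replicate 1 and 921 in replicate 3, 45 and 47 bp upstream. The nearest summit of the pooled list and of replicate 2 was 4592 bp away.

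RpL9 ranked 1629 and 1632 in replicates 1 and 2, 18 and 63 bp downstream of a TSS, while the nearest pooled summit was 16089 bp away. These 3 genes were among the 2000 strongest peaks of 2 libraries, as were 27 RpL genes in all. Of all genes 1299 met that mark, and 35 genes, or 0.251% of all 13945, met it with no pooled peak within 1 kb. The 3 RpL genes are 5.56% of the 54. An unmarked gene is therefore one that the thresholded list leaves out, which at these 3 promoters differed from what single libraries listed. The rule of 2000 peaks was chosen after the data were seen.

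Replicate 1 accounted for most of the top summits at unmarked members. It had a top summit at 11 of the 20, and the strongest such summit lay within 100 bp of a TSS in 9 of these. RpL26, not among the 9, had a weaker top summit 58 bp from its main TSS, at rank 3087. Replicate 2 had a top summit at 2 unmarked members and replicate 3 at 3. Over all genes, marked or not, replicate 1 also had the most, at 25.6% beside 20.1% and 20.4%. The shares among all unmarked genes were not counted. RpL35A (rank 1299, 6 bp upstream), RpL27A (1319, 2 bp downstream), RpL36A (2396, 3 bp upstream) and RpL10 (4340, 62 bp downstream) had a peak in replicate 1 and none within 1 kb in the other libraries or the pooled list. With RpL41, 5 members (9.26%) had a top summit in replicate 1 and no peak in the other libraries, beside 4.15% of all genes. No member and 4 and 16 of all genes showed this for replicates 2 and 3. RpL23 ranked 1792 in replicate 1 and 3791 in replicate 3, at 6 bp downstream and 5 bp upstream, and had a pooled peak of rank 11254 at 203 bp. RpLP2 ranked 4787, 11365 and 5477 in replicates 1, 2 and 3, with these peaks at 3, -519 and -453 bp from its TSS. Its strongest pooled peak stood at rank 9478, at -209 bp.

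Few peaks of the remaining unmarked members were strong. RpL21 stood at ranks of 20852, 16666 and 15584. RpL40, which encodes a ribosomal protein fused to ubiquitin, was listed at 27496 and 28812 in replicates 1 and 3 and not in replicate 2. RpL6 was listed at 28542 and 29334 in the same libraries. RpL5 had a peak in replicate 1 at rank 13294 and a pooled peak of rank 28194.

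By role in the ribosome, marked genes were found in all groups but the ubiquitin fusion, which holds 1 gene, RpL40. The groups are too small to set their shares apart. In the 5S particle RpL11 was marked and RpL5 was not. Of the stalk, which recruits translation factors, 3 of 4 genes were marked. They were RpLP1 (signal 590, ranks 443, 1168 and 757), RpLP0 (532, ranks 283, 1718 and 1473) and RpL12 of the stalk base (301, ranks 1946, 3399 and 3308), while RpLP2 was not. All 3 genes for proteins that line the exit tunnel were marked, namely RpL4 (607), RpL17 (406) and RpL39 (340).

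At the tunnel exit 5 of 7 genes were marked, with RpL19 (722), RpL22 (676), RpL31 (602), RpL35 (225) and RpL38 (173). RpL23A and RpL26 were not. Near the catalytic centre RpL3 (518, ranks 1240, 970 and 926) and RpL8 (458, ranks 1949, 1041 and 1264) were marked, and RpL10 was not. The other 24 members included 15 marked ones, among them RpL32 (492), often used as a reference transcript in flies, and RpL30 (523).

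Among duplicated genes and relatives 5 of 10 were marked. Both RpL34 genes were, RpL34b with a signal of 603 and RpL34a with 599, at library ranks of 406, 1021 and 674 and of 415, 1213 and 591. RpL37-1 was marked at 254 and RpL37-2 had no peak in any list. RpL10Ab was marked at 209 and RpL10Aa had none, and RpL22 was marked at 676 while RpL22-like, known for its abundance in testis, had none. RpL24 (652) and RpLP0 (532) were marked and RpL24-like and RpLP0-like were not. Reads that fit several copies could be lost or split, and how such reads were counted is not given in the sources used here.

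RpL7-like was the only marked gene with "like" in its symbol, and its strongest peak was not its own by position. The summit (signal 710) lay at -253 bp from the nearest RpL7-like TSS and 31 bp from the TSS of JhI-21, an amino acid transporter gene. A second, weaker thresholded summit lay at -45 bp, and the gene CG34164 starts at the same base as the main RpL7-like transcript. The RpL34a summit lay at -138 bp from its TSS and 91 bp from that of Trmt61. For the other 32 marked members (94.1%) the nearest TSS to the strongest summit was their own, against 75.5% of all marked genes. Leaving out symbols with "like", 33 of 50 genes (66%) were marked.

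Marked summits of RpL genes lay on the TSS. The median position was 9.5 bp upstream (-9.5 bp) and the median distance, without sign, was 21 bp, against 192 bp for all marked genes. Within 50 bp of a TSS were 27 of 34 (79.4%), compared with 17% of all marked genes, and within 100 bp were 31 (91.2%), compared with 29.7%. Upstream of the TSS lay 22 summits, downstream 11 and on the base itself 1, at RpL37-1. By annotation 17 were upstream of the gene, 16 in the 5' UTR and 1, at RpL35, in an intron. The range was from -253 bp at RpL7-like to 68 bp at RpL37A.

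**Figure D2:**
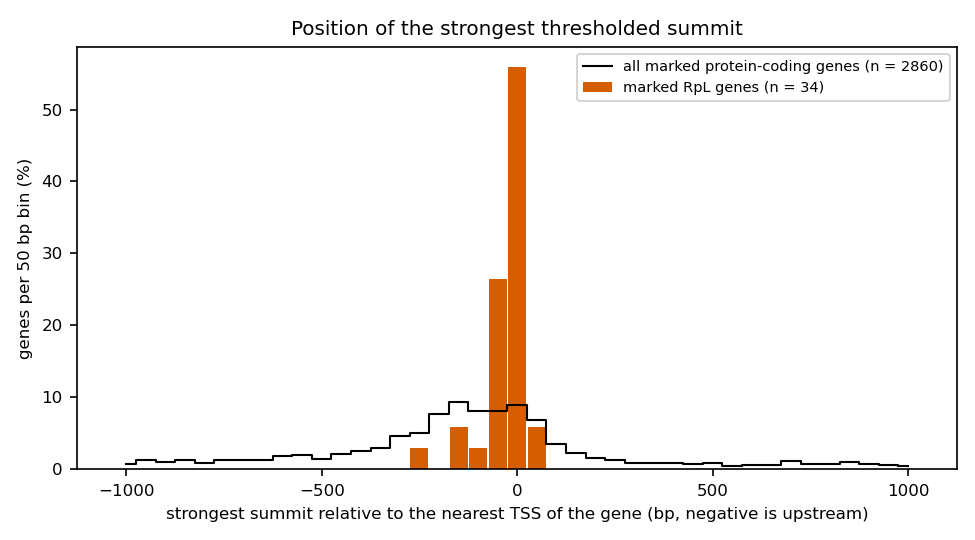
Share of genes per 50 bp bin (y axis, %) by the position of the strongest thresholded summit relative to the nearest TSS of the gene (x axis, bp), for the 34 marked RpL genes (bars) and all 2860 marked genes (line). Of the RpL genes 55.9% fall in the bin centred on the TSS, where 8.92% of all marked genes lie.

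The position was close between the libraries. Among the 31 marked members with a peak within 1 kb in each full list, the summit moved by a median of 31 bp between libraries, from 1 bp to 318 bp at RpL28. It moved by at most 50 bp in 22 of them. RpL37-1 had its summit 0, -1 and 0 bp from the TSS in replicates 1, 2 and 3, and RpL39 had it at 1, 4 and 1 bp. Over members with any peak within 1 kb, the median signed position was -17, -16 and -16 bp in the libraries, while over all genes it was -119, -127 and -118 bp. Fragments of 200 to 800 bp per the labels are far longer than these distances, which limits how finely a summit places a binding site.

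Peaks at RpL genes were narrower than those of all marked genes, as were those of the small subunit genes (RpS and sta, median 346 bp). The median width was 262 bp for the 34 strongest peaks, from 117 bp at RpL36 to 456 bp, and 456 bp for all marked genes. The width of 456 bp was the commonest in the thresholded list, at 66.8% of its peaks, and in the full pooled list, at 92.3%. Of the 34 RpL peaks 10 (29.4%) had it. Among the strongest 3289 peaks 40.3% of peaks and 5 of 29 RpL peaks (17.2%) had it. A single thresholded summit was found at 29 marked members, and 5 had 2. Several summits were found at 831 of all 2860 marked genes, with at most 9, and at 6 of 27 marked RpS genes.

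Many RpL genes share their upstream region with another gene. The nearest other protein-coding TSS lay within 1 kb and pointed away for 33 of 54 members and for 4409 of all 13945 genes. Of these 33 members 23 (69.7%) were marked. Of all genes with such a neighbour 27% were marked. Of the 20 members with no other TSS within 1 kb, 10 (50%) were marked, against 16.9% of all such genes. RpL7 and Ripalpha start 30 bp apart, RpL13 and Dref, the gene for DREF, start 101 bp apart, and RpL28 and the translation initiation factor gene eIF1 start 383 bp apart. For these pairs a summit near both TSSs cannot be given to 1 gene.

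The members were short genes, with a median length of 1347 bp for marked and 1238 bp for unmarked ones, and 2166 bp for all genes. Of all genes no longer than RpL5, the longest member at 4606 bp, 14.1% were marked. Small nucleolar RNA genes, which often lie in introns of ribosomal protein genes, were annotated inside 16 members on the same strand. Of these 10 were marked, and of the other 38 members 24 were, both near the 63% of all members. The same split was not counted over all genes.

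All arms but chromosome 4 held members. On X all 6 were marked (RpL22, RpL17, RpL7A, RpL36, RpL37-1 and RpL35), with 26.7% of all X-linked genes. On 2R 9 of 14 were marked (all genes 18.2%), on 3R 7 of 11 (18.9%), on 2L 7 of 13 (19.4%) and on 3L 5 of 10 (21%). RpL5, RpL15 and RpL38 are known genes of pericentromeric heterochromatin, and RpL38 alone of them was marked.

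The other genes of translation gave shares on both sides. Of the RpS genes and sta, which encode the small subunit, 27 of 39 were marked (69.2%, 53.6 to 81.4), and the share was 69.2% in each library. Among the strongest 657 peaks the order was the other way, with 4 RpS genes (10.3%) beside the 12 RpL genes (22.2%). The median rank was 1657 for marked RpS genes and 894 for marked RpL genes. These differences between the subunits were not tested, and the intervals of their shares overlap. RpS summits lay as close to the TSS, with a median distance of 15 bp.

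Of the genes for mitochondrial ribosomes, the marked ones were 14 of 47 mRpL genes (29.8%, 18.7 to 44) and 9 of 26 mRpS genes (34.6%, 19.4 to 53.8). Their summits lay a median of 280 and 223 bp from the TSS. The nearest TSS to the summit was their own for 4 of 14 and 1 of 9. Translation initiation factor genes (eIF) had 10 of 44 marked (22.7%, 12.8 to 37), near the share of all genes. Elongation factor genes (eEF) had 4 of 8 (50%, 21.5 to 78.5), too few to place.

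**Figure D3:**
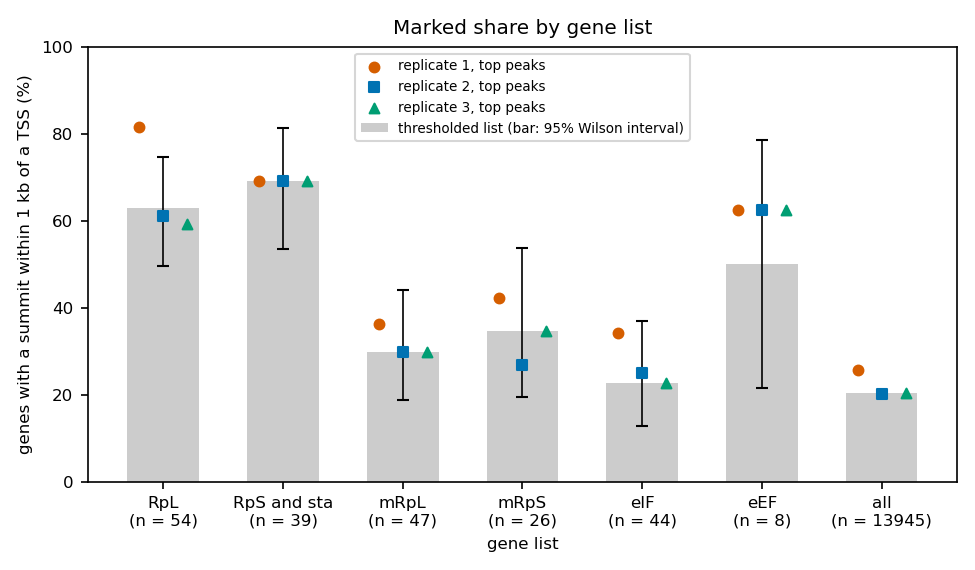
Marked share (y axis, % of genes) of 7 gene lists, by the thresholded list (bars, with 95% Wilson intervals that cover counting error only) and among the strongest 6578 peaks of each library (points). RpL and RpS genes stand at 63% and 69.2%, mitochondrial ribosomal genes at 29.8% and 34.6%, and all protein-coding genes at 20.5%.

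Sequence words were then counted in the 300 bases around the main TSS of every gene. The TCT-like word, CCTTT or TCTTT on the gene's strand within 20 bases of the TSS, was in 39 of 54 RpL promoters (72.2%, 59.1 to 82.4) and in 8.71% of all promoters. With any annotated TSS it was in 50 (92.6%), and in 11.9% of all genes. It was in 26 of 34 marked members (76.5%) and in 13 of 20 unmarked ones (65%), with intervals of 60 to 87.6 and 43.3 to 81.9 that overlap. This difference was not tested.

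The DRE was in 15 RpL promoters (27.8%, 17.6 to 40.9), 13 of 39 RpS promoters (33.3%) and 8.94% of all promoters. It was in 11 marked members (32.4%) and 4 unmarked ones (20%), with overlapping intervals of 19.1 to 49.2 and 8.07 to 41.6. A DRE together with a TCT-like word was in 12 RpL promoters (22.2%) and 0.81% of all promoters. The Motif 1 core was in 7 (13%, 6.42 to 24.4), as in RpL7 and RpL14 shown above, and in 6.45% of all. RpL27 was the member with all 3 of these words.

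The E-box CACGTG, the word bound by Myc, was in 11 RpL promoters (20.4%, 11.8 to 32.9) and in 4.26% of all promoters. None of the 39 RpS promoters held it, which allows an upper 95% limit of 8.97% by the Wilson interval. All 11 RpL promoters still held it in the window from 100 bases before to 50 bases from the TSS, where 2.46% of all promoters did. Its median position was 29 bases into the transcript. Of the 11, 8 were marked members (RpL7, RpL11, RpL7-like, RpL24, RpL34b, RpL32, RpL35 and RpL29) and 3 were unmarked (RpLP0-like, RpL24-like and RpL6).

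The remaining words were close to their level in all promoters or below it. The TATA box word was in 42.6% of RpL promoters and 45.3% of all. GAGAG was in 22.2% and 30.2%, and a run of 7 A bases (AAAAAAA) in 27.8% and 26.7%, both searched on either strand. Within 100 bases before to 50 bases from the TSS the TATA box word was in 9.26% of RpL promoters and 23.7% of all. The median GC content was 36.5% for RpL promoters and 38% for all. A word match describes the sequence and shows no bound factor, and a single word can overlap another, as RpL26 shows with overlapping TCT-like words.

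**Figure D4:**
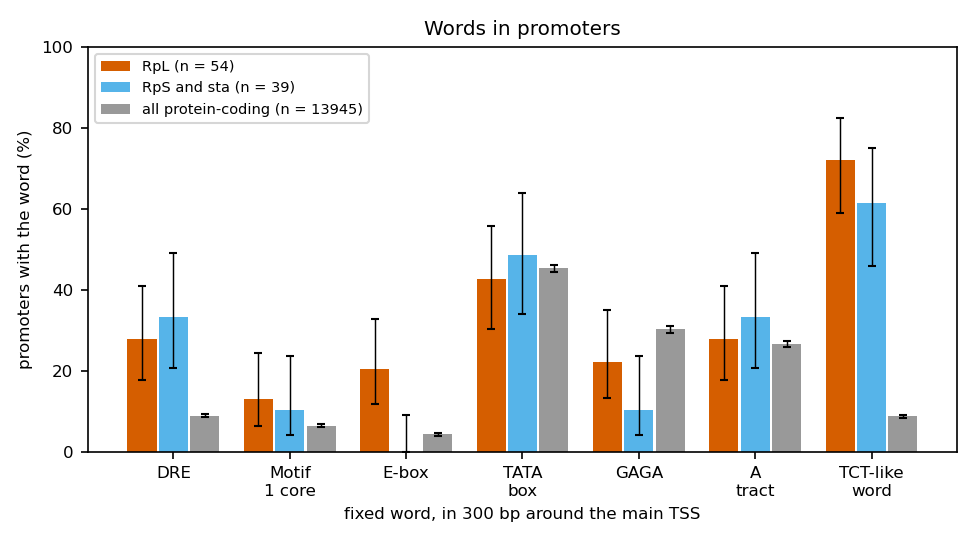
Share of promoters (y axis, %) that hold each fixed word in the 300 bases around the main TSS, for RpL genes, RpS genes with sta, and all protein-coding genes, with 95% Wilson intervals. The TCT-like word and the DRE are more frequent in both ribosomal groups (72.2% and 61.5%, 27.8% and 33.3%) than in all promoters (8.71% and 8.94%), and the E-box is at 20.4% in RpL and 0% in RpS promoters.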

How the data were processed

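Peaks of the 3 libraries had been called on dm6 by the authors, singly and pooled, each against the same control alignment, per the file headers. A thresholded list, made with the irreproducible discovery rate (IDR), was deposited beside them. The aligner, the caller and the cut-off of this step are not stated in the labels. A sample description reads as if these were input libraries, but the antibody and assay labels and the separate control alignment led to their use as ChIP libraries. The deposited signal value per peak has no stated scale and served only to rank peaks within a list. All 6578 thresholded peaks were the 6578 strongest of the pooled list, so both lists give the same ranks.

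Genes and TSSs came from Ensembl release 115 (BDGP6, dm6 coordinates; protein-coding transcripts on 2L, 2R, 3L, 3R, 4 and X). Positions count from 1. A summit is the peak start plus its offset. The top peaks of a library were its 6578 strongest, and summits within 100 bp were taken as met. The main TSS was that of the Ensembl canonical transcript. Shares carry 95% Wilson intervals for counting error only. No test was made, since there is 1 group and the members and gene lists were chosen with earlier results of these data known. Scripts used Python 3.11.15, numpy 2.4.6, pandas 2.3.3 and scipy 1.17.1, and were tested on simulated data. All RpL genes enter the counts, and 1 is not reported here by name. Fuller values went to the strongest 12, that gene aside, and weakest 4 marked members, and promoters to the 4 strongest, the weakest and 3 unmarked members off arm 2R. Alternatives covered windows, peak sets, single replicates and TSS choice.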

Additional observations from a re-analysis of the deposited data

How the results depend on the processing

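The count of 34 marked RpL genes stayed within 1.5 times under all but 1 alternative, from 27 for peaks met in all 3 libraries to 41 for the full pooled list. The exception was the strongest 657 peaks, chosen after the data were seen, with 12 RpL and 4 RpS genes. Using thresholded peaks met in both other libraries in place of 1 replicate gave 28 to 29 RpL, 21 to 24 RpS and 1991 to 2114 genes in all.

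The count of all marked genes, 2860, moved more, to 1736 with a window of 200 bp, 1079 with 100 bp (chosen after the data were seen), 1894 for the strongest 3289 peaks, 1772 for peaks met in all 3 libraries, 5202 in the pooled list and 540 for the strongest 657 peaks. The mean RpL share per library, 67.3%, went to 79.6% with all peaks of a library and to between 60.2% and 71.3% without 1 replicate. The median summit position, -9.5 bp, went to -0.5 bp from the outermost TSS and to -14 bp for the strongest 3289 peaks, and lay between -9.5 and -9 bp without 1 replicate. Of the words, the TATA box fell to 9.26%, GAGAG to 13% and the A run to 7.41% in the shorter window, which holds fewer bases, and the TCT-like word rose to 92.6% over all TSSs. No paired analysis was possible because there is 1 group. Depth is unknown, so a missing peak sets no limit on binding.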
